A study of Drosophila melanogaster with 10 samples.

Results

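RNA interference (RNAi) against Sce was compared with mock treatment in total RNA of ML-DmBG3-c2, an established Drosophila cell line that came from the central nervous system of larvae. The comparison is given as the authors' deposited ratio, p and q for each of 7624 genes, and every gene of the table was kept, so the members are 7624 of 7624. All cells grew in medium with serum and insulin, and for RNAi they were given double-stranded RNA (dsRNA) against the target, in most experiments a mixture of a pair of dsRNAs. What the mock wells received is not described in the labels. The series itself holds 10 nascent RNA libraries, with 4 labelled Sce RNAi, 3 labelled Ph RNAi and 3 mock. The total RNA libraries, after Sce RNAi, Ph RNAi, Pc RNAi and mock treatment by their column names, are not among these 10. The sources used here do not state their number, kit or depth, so no value per library and no SD can be set beside a ratio. The authors' p and q, from a test that is not named, are the only statistics given with it, and a q does not measure the spread between replicates. A ratio above 1 means more RNA in the libraries labelled Sce RNAi than in mock, and rose or fell is written where q was under 0.05. The nascent RNA comparison of the same treatment was used beside it because it comes from other libraries, made from chromatin-bound RNA that was depleted of polyadenylated and uncapped RNA.

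Sce encodes the fly RING1 protein, the subunit of Polycomb repressive complex 1 (PRC1) that attaches ubiquitin to histone H2A. PRC1 also holds Polycomb (Pc), which binds the methylated histone tail that PRC2 makes, Polyhomeotic (Ph), and either Psc or its relative Su(z)2. In fly tissues PRC1 is best known for keeping Hox genes and other developmental regulators silent where they are not needed. Total RNA measures mostly mature transcripts, so it changes with the rate of transcription and with the stability of the RNA, while nascent RNA follows transcription more directly.

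The targeted gene was examined first, since it checks the label. Sce itself was at 27.0 times mock in total RNA of the libraries labelled Sce RNAi, with a p of 0.008 (q = 0.198) in the authors' deposited table. In nascent RNA the authors' mean of Sce was 293193 signal units in the libraries labelled Sce RNAi, against 2475 in mock, a ratio of 118. Its total RNA ratio was 1.45 after Ph RNAi and 0.876 after Pc RNAi in the authors' deposited table. The other targeted genes behaved alike under their own labels, with ph-p at 8.64 and ph-d at 8.09 times mock after Ph RNAi and Pc at 21.5 times mock after Pc RNAi in the authors' deposited table. None of these values shows a loss of the targeted RNA, so the wording used is the libraries labelled Sce RNAi. The protocol adds RNA of the target's own sequence to the cells, and its part in these ratios was not tested.

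In the libraries labelled Sce RNAi, 18 genes rose and 1 fell in total RNA. The genes that rose were the Hox gene Abd-B, the homeobox gene NK7.1, the PRC1 genes Psc and Su(z)2, Grip, aPKC, Best1, Obp85a, Cyp6v1 and 9 genes known only by CG numbers. The gene that fell was Adgf-A, which encodes an adenosine deaminase secreted into the extracellular space. The 18 rises were 0.236% and the single fall 0.0131% of the genes tested. At an unadjusted p under 0.05 there were 707 genes higher, or 9.27%, and 175 lower, or 2.3%. All 19 called genes had a p listed at 0, that is under 0.0005, and the lowest q was 0.001.

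**Figure D1:**
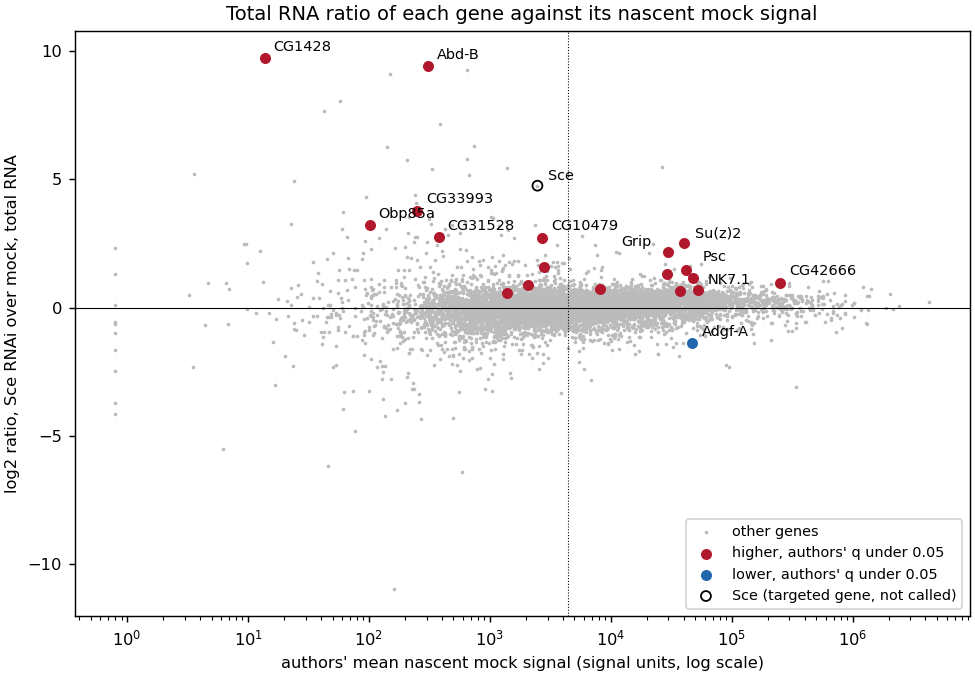
Log2 of the authors' total RNA ratio, Sce RNAi over mock, for 7624 genes (vertical axis) against the authors' mean nascent mock signal (horizontal axis, log scale, signal units). Red points are the 18 genes that rose, the blue point is Adgf-A, the open circle is Sce, the dotted line marks the median nascent signal, and the lowest point, near -11, is Atg8b with a ratio listed at 0. Called genes lie at both ends of the signal range, and large ratios are most common at low signal.

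The ratios of all genes were close to 1, with a median of 1.042 and the middle 90% between 0.54 and 1.75. Ratios above 2 were found for 244 genes and ratios under 0.5 for 298, of which 123 and 67 had an unadjusted p under 0.05. Scatter was wider among genes with little nascent RNA in mock cells. The SD of the log2 total RNA ratio was 1.27 in the lowest of 5 equal classes of nascent mock signal and 0.48 in the highest. By calls, the lowest class held 5 rises and the highest held 8 rises and the 1 fall. The median nascent mock signal of the 19 called genes was 8204 units, against 4447 for all genes, and 10 of the 19 lay above that median.

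Abd-B, the Hox gene that specifies posterior abdominal segments, had a total RNA ratio of 684 (q = 0.045) in the authors' deposited table. Its nascent mean was 6051.5 units in the libraries labelled Sce RNAi, against 309.7 in mock, a ratio of 19.5 with an unadjusted p of 0.01. The mock value lay in the lowest 10% of nascent means, under 557 units, so the size of the fold is uncertain while its direction was the same in both kinds of RNA. In the other total RNA comparisons, which share the mock libraries, Abd-B was at 2083 times mock after Ph RNAi and 1914 times mock after Pc RNAi in the authors' deposited table.

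Psc and Su(z)2 are neighbouring genes on the fly genome that encode related RING finger proteins of PRC1. Su(z)2 rose 5.81-fold (q = 0.005) and Psc rose 2.78-fold (q = 0.045) in the authors' deposited table. The nascent mean of Su(z)2 was 125771 units in the libraries labelled Sce RNAi, against 40182 in mock, a ratio of 3.13 with an unadjusted p of 0.001. That of Psc was 102522 units in the libraries labelled Sce RNAi, against 41974 in mock, a ratio of 2.44 with an unadjusted p of 0.013. Both genes were thus well transcribed in mock cells, and both ratios were above 2 in each kind of RNA. After Ph RNAi the total RNA ratios were 5.24 for Su(z)2 (q = 0.062) and 3.24 for Psc (q = 0.029), and after Pc RNAi they were 6.49 (q = 0.002) and 2.51 (q = 0.033), in the authors' deposited table.

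NK7.1, a homeobox gene, rose 2.22-fold (q = 0.018) in the authors' deposited table. Its nascent mean was 152688 units in the libraries labelled Sce RNAi, against 47653 in mock, a ratio of 3.20 with an unadjusted p of 0.003. Grip, which encodes a PDZ domain scaffold needed for the guidance of embryonic muscles, rose 4.54-fold (q = 0.006) in the authors' deposited table. The nascent mean of Grip was 62998 units in the libraries labelled Sce RNAi, against 29610 in mock, a ratio of 2.13 with an unadjusted p of 0.002. Grip was also at 8.69 times mock after Ph RNAi and 13.1 times mock after Pc RNAi in total RNA, both with q listed at 0 in the authors' deposited table. aPKC, the atypical protein kinase C of apical polarity, rose 1.60-fold (q = 0.018) and Best1, a bestrophin chloride channel gene, rose 1.58-fold (q = 0.045) in the authors' deposited table. Their nascent ratios were 1.21 with an unadjusted p of 0.266 for aPKC and 1.85 with an unadjusted p of 0.018 for Best1. The smaller total RNA ratios of this pair were therefore accompanied by a low unadjusted nascent p for Best1 but not for aPKC.

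The largest total RNA ratio of the table belonged to CG1428, at 852 (q = 0.045) in the authors' deposited table. Its nascent mean was only 40.2 units in the libraries labelled Sce RNAi, against 13.7 in mock. The fold thus belongs to a gene with almost no nascent signal in mock cells. CG33993 rose 13.8-fold (q = 0.001), the lowest of the comparison in the authors' deposited table. The nascent mean of CG33993 was 4701 units in the libraries labelled Sce RNAi, against 248.9 in mock, a ratio of 18.9 with an unadjusted p of 0.001. Obp85a, a gene of the odorant-binding protein family, rose 9.37-fold (q = 0.018) in the authors' deposited table. Obp85a had a nascent mean of 1378 units in the libraries labelled Sce RNAi, against 101.5 in mock, a ratio of 13.6 with an unadjusted p of 0.012. CG31528 rose 6.67-fold (q = 0.041) in the authors' deposited table, and its nascent ratio was 1.45 with an unadjusted p of 0.415. Of these 4 and Abd-B, all 5 lay in the lowest 10% of nascent mock means, so their folds are uncertain in size.

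Genes with intermediate or strong nascent signal made up the rest of the calls. CG10479 rose 6.62-fold, CG8398 rose 2.99-fold, CG5191 rose 2.50-fold, CG42666 rose 1.97-fold, CG10209 rose 1.84-fold and CG5886 rose 1.51-fold, q being 0.006 to 0.047 by the authors' deposited table. Cyp6v1, a cytochrome P450 gene, rose 1.67-fold (q = 0.045) in the authors' deposited table. None of these 7 reached an unadjusted p of 0.05 in nascent RNA, where the ratios were 2.23 for CG10479, 1.58 for CG8398, 1.42 for CG5191, 1.92 for CG42666, 1.78 for CG10209, 0.976 for CG5886 and 0.998 for Cyp6v1, with p from 0.071 to 0.992. CG5886 and Cyp6v1 were the 2 called genes whose nascent ratio was not on the same side of 1. An antisense RNA gene covers 18.4% of the exon bases of Cyp6v1, the largest share among the called genes, so part of its signal is uncertain in origin.

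Adgf-A, the 1 gene that fell, was at 0.385 times mock in total RNA (q = 0.043) in the authors' deposited table. Its nascent mean was 16939 units in the libraries labelled Sce RNAi, against 47303 in mock, a ratio of 0.358 with an unadjusted p of 0.001. The fall had nearly the same size in both kinds of RNA. After Ph RNAi and Pc RNAi the total RNA ratios of Adgf-A were 0.647 (q = 0.206) and 0.619 (q = 0.101) in the authors' deposited table.

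**Figure D2:**
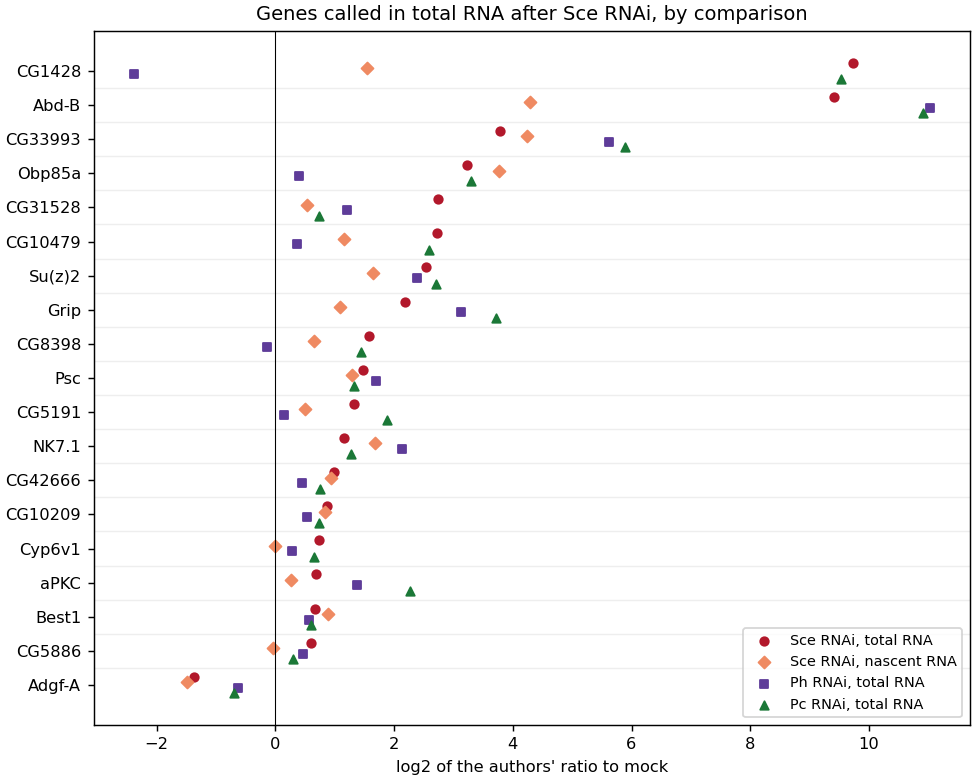
Log2 of the authors' ratio to mock for the 19 genes called in total RNA after Sce RNAi, from the highest to the lowest total RNA ratio (rows), in the Sce RNAi total and nascent comparisons and in the Ph RNAi and Pc RNAi total comparisons (markers). The 3 total RNA comparisons share the same mock libraries. In total RNA, CG1428, Obp85a, CG10479, CG8398 and CG5191 lie at or below 0.40 after Ph RNAi and between 1.45 and 9.52 after Pc RNAi. The nascent comparison of Ph RNAi, in which Obp85a was at 48.4 times mock, is not drawn.

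The 3 total RNA comparisons use the same mock libraries, so a mock value that is off moves all of them, and their values are given side by side without a test. Of 7624 genes, Sce RNAi had the fewest calls, 18 higher and 1 lower, beside 268 higher and 28 lower for Ph RNAi and 232 higher and 11 lower for Pc RNAi in the authors' deposited table. At an unadjusted p under 0.05 the shares lay closer, 9.27% higher and 2.3% lower for Sce RNAi. They were 13.9% and 4.7% for Ph RNAi and 11.8% and 2.62% for Pc RNAi. The number of total RNA libraries per label is not stated, so these counts do not measure the size of an effect. Genes called after Sce RNAi differed in what they did under the other labels. Obp85a was at 1.32 times mock after Ph RNAi (q = 0.51) and at 9.82 times mock after Pc RNAi (q = 0.009) in the authors' deposited table. CG1428 was at 0.191 after Ph RNAi (q = 0.454) and at 735 after Pc RNAi (q = 0.001), and CG10479 was at 1.29 (q = 0.468) and at 5.98 (q = 0.013), in the authors' deposited table. CG8398 was at 0.902 after Ph RNAi and 2.73 after Pc RNAi, and CG5191 at 1.11 and 3.67. For Obp85a the ratio near 1 after Ph RNAi was seen in total RNA only. In nascent RNA after Ph RNAi Obp85a was at 48.4 times mock, with an unadjusted p of 0.013 (q = 0.109) in the authors' deposited table. No nascent comparison of Pc RNAi is given, so the contrast between these labels cannot be seen in nascent RNA. The nascent ratios after Ph RNAi were 0.498 for CG1428, 0.307 for CG10479, 0.592 for CG8398 and 0.519 for CG5191. Differences between the RNAi labels were not tested, since the table gives no comparison of them in total RNA.

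The nascent libraries gave a look at the same treatment in separate RNA. Of the 19 genes called in total RNA, 17 had a nascent ratio on the same side of 1, or 89.5%, and 10 of these also had an unadjusted nascent p under 0.05, with 0 on the opposite side at that p. Over all genes whose total RNA ratio differed from 1, the direction was shared by 59.5%, and 7.04% shared it with an unadjusted nascent p under 0.05. The median nascent log2 ratio of the 19 was 0.94. With 1 exception, genes called in nascent RNA lay on the same side of 1 in total RNA. There 5 genes were higher and 4 lower, or 0.0656% and 0.0525% of the genes tested, and none of the 9 was among the 19. At an unadjusted p the nascent background was 4.62% higher and 5.29% lower.

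The nascent calls had these values in total RNA. The zinc finger gene klu was at 11.1 times mock with a p of 0.002 and the RNA-binding protein gene cpo at 3.47 times mock with a p of 0.008, both short of a q of 0.05 by the authors' deposited table. The homeobox and zinc finger gene zfh2 was at 3.64 with a p of 0.019, the exchanger gene Nhe2 at 1.46 with a p of 0.049 and the lamin gene LamC at 1.24 with a p of 0.678. On the low side, the esterase gene alpha-Est1 was at 0.223 with a p of 0.041, the lipid phosphatase gene wun at 0.464 with a p of 0.104 and gukh at 0.486 with a p of 0.001. The exception was CG42390, at 1.80 times mock in total RNA and 0.403 in nascent RNA. Of Nhe2, 50.7% of the exon bases are shared with CG46307, so its signal is uncertain in origin.

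Across all 7624 genes the log2 ratios of total and nascent RNA had a Pearson r of 0.31 and a Spearman rho of 0.27, as a description over genes that share libraries and are not replicates. Among the 707 genes higher in total RNA at an unadjusted p, 74.3% were also above 1 in nascent RNA, and among the 175 lower, 75.4% were below 1. The 2 kinds of RNA thus shared a direction more often among genes with a low p than over the table as a whole.

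**Figure D3:**
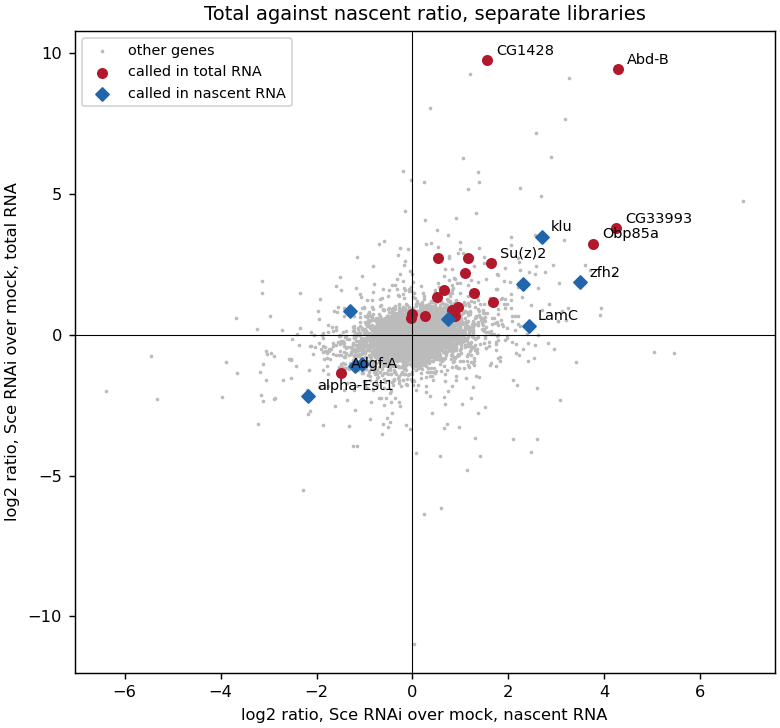
Log2 ratio of Sce RNAi over mock in total RNA (vertical axis) against nascent RNA (horizontal axis) for 7624 genes. Red points are the 19 genes called in total RNA and blue diamonds the 9 called in nascent RNA, and all but CG5886, Cyp6v1 and CG42390 lie in the upper right or lower left quadrant.

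There were 11 genes with q between 0.05 and 0.1. The gene if, which encodes the integrin subunit alphaPS2, was at 4.43 times mock (q = 0.058) in the authors' deposited table and at 5.90 times mock in nascent RNA with a p listed at 0. The eye development gene ec was at 8.64 (q = 0.059), the forkhead gene croc at 30.3 (q = 0.059) and GEFmeso, an exchange factor gene, at 2.03 (q = 0.059) in the authors' deposited table. CG43322 was at 1.98 in total RNA (q = 0.051) and 0.561 in nascent RNA, Nek2, a mitotic kinase gene, at 1.74 (q = 0.08) and SNF4Agamma, the gamma subunit gene of AMP kinase, at 1.51 (q = 0.095). Tsp5D was at 0.381 in total RNA (q = 0.08) and at 0.364 in nascent RNA, and the splicing factor gene SF2 was at 0.733 in total RNA and 1.47 in nascent RNA. CG13625 was at 2.13 in total RNA and 3.03 in nascent RNA, and CG12065 at 2.23 in total RNA and 2.42 in nascent RNA. The nascent mock means of croc, CG13625 and CG43322 were 24.1, 166.7 and 283.6 units, all in the lowest 10%.

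Classical Polycomb targets were followed as a list of developmental regulators, written with earlier results of these data known, so its direction is not independent evidence. Of 100 names, 53 were in the table, and 4 of these rose, Abd-B, NK7.1, Psc and Su(z)2, while 0 fell. At an unadjusted p, 16 of 53 were higher, or 30.2% beside the 9.27% of all genes, and 2 were lower. The median log2 ratio was 1.59 in total RNA and 0.98 in nascent RNA, beside 0.06 and 0.01 over all genes, and 41 of 53 were above 1 in total RNA.

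Among Hox genes other than Abd-B, Scr was at 552 times mock with a p of 0.025 (q = 0.237) and Antp at 78.4 times mock with a p of 0.015 (q = 0.218) in the authors' deposited table. Ubx was at 11.1 times mock with a p of 0.101 and abd-A at 8.32 times mock with a p of 0.105. The nascent ratios of Scr, Antp, Ubx and abd-A were 9.67, 7.36, 4.13 and 2.00, so all lay above 1 in both kinds of RNA although only Abd-B passed. Of the exon bases of Antp, 50.1% are shared with CG46458, so its signal is uncertain in origin. The nascent mock means of Scr, Ubx and abd-A were 148.7, 316 and 138.5 units, in the lowest 10% of genes.

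Other regulators on the list had large ratios without passing. The T-box gene bi, active in wing and eye, was at 143 times mock with a p of 0.023, the paired-box gene Poxm at 11.7 with a p of 0.001, the head gene oc at 17.0 with a p of 0.008 and the apterous gene ap at 11.7 with a p of 0.032 in the authors' deposited table. The nascent mock means of bi and ap were 384.7 and 216.4 units, in the lowest 10% of genes, so the size of these folds is uncertain. The zinc finger gene tsh was at 6.59 with a p of 0.007, unpg at 9.60 with a p of 0.024, Dr at 4.95 with a p of 0.023, Vsx1 at 4.41 with a p of 0.003 and the BMP ligand gene dpp at 3.61 with a p of 0.022. On the low side at an unadjusted p were 2 homeobox genes with strong nascent signal in mock cells, C15 and Lim1. C15 was at 0.419 with a p of 0.004 in total RNA and at 0.273 in nascent RNA, with a nascent mean of 211396 units in mock. Lim1 was at 0.679 with a p of 0.041 in total RNA and at 0.542 in nascent RNA, with a nascent mean of 592137 units in mock.

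The list divided by how strongly mock cells transcribed its members, read from the nascent libraries. Of the 36 members below the median nascent mock signal, 32 were above 1 in total RNA, 13 were higher and 0 lower at an unadjusted p, or 36.1% and 0%, and the median ratio was 4.68. Over all 3812 genes of that group 6.85% were higher and 2.26% lower, with a median ratio of 0.968. The group is not matched to the members in signal, since only 25 of all 53 members lay above the 10th percentile. The median log2 ratio of these 25 in total RNA was 0.65, beside 1.59 for the 53. Of the 17 members above that median, 9 were above 1, 3 were higher and 2 lower at an unadjusted p, or 17.6% and 11.8%, and the median ratio was 1.07. Over all 3812 genes above the median 11.7% were higher and 2.33% lower, with a median ratio of 1.10. The 3 higher ones were Psc, Su(z)2 and NK7.1. The other 12 active members had ratios between bab1 at 0.494 with a p of 0.359 and mirr at 1.92 with a p of 0.387 in the authors' deposited table, with hth at 0.848, srp at 1.12 and inv at 1.58 among them.

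**Figure D4:**
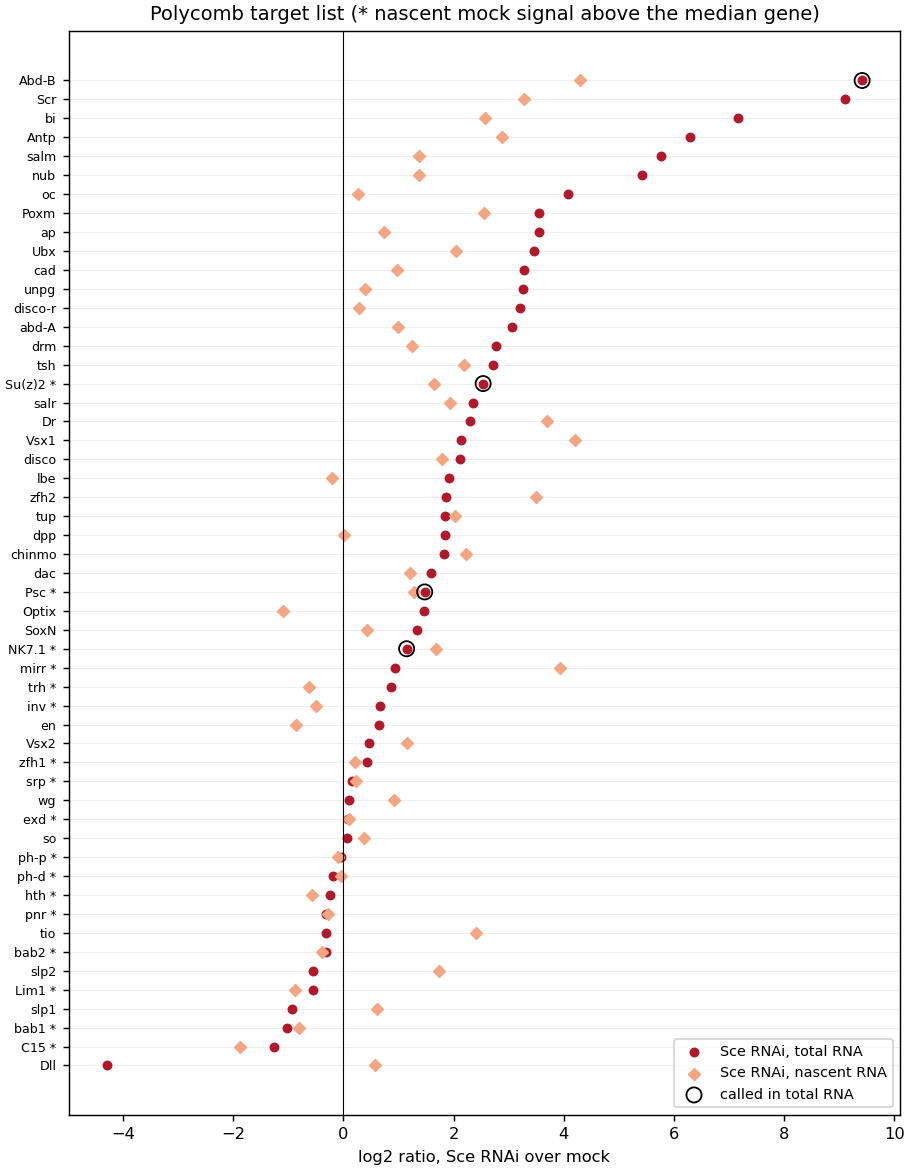
Log2 ratio of Sce RNAi over mock for the 53 genes of the Polycomb target list (rows) in total RNA (circles) and nascent RNA (diamonds), with black rings on the 4 genes called in total RNA. Stars mark the 17 genes with nascent mock signal above the median gene, which lie mostly near 0, while 32 of the 36 others are above 0 in total RNA.

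Besides Psc, Su(z)2 and the targeted Sce itself, no PRC1 gene passed an unadjusted p of 0.05. Pc, the chromodomain subunit, was at 1.06, ph-p at 0.966, ph-d at 0.877, Scm at 1.16, RYBP at 1.22, Kdm2 at 1.29 and l(3)73Ah at 1.04, all with an unadjusted p above 0.15 in the authors' deposited table. Of 8 PRC2 genes 0 passed an unadjusted p of 0.05, with E(z), the methyltransferase, at 1.15, Su(z)12 at 1.22, Caf1 at 1.15, Pcl at 0.829, Jarid2 at 1.10, jing at 1.23 and escl at 0.858. The closest of them was esc at 1.36 with a p of 0.056. Of 11 recruiter genes 0 passed the unadjusted threshold, and of 27 trithorax group genes wds was higher at 1.60 and Nipped-A lower at 0.657. The medians of the log2 ratio were 0.25 for PRC1, 0.20 for PRC2, 0.22 for recruiters and 0.23 for trithorax group genes. Relative to the median of genes in the same class of exon length they were 0.12 for PRC1 and 0.05 or less for the other 3 lists.

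Neighbouring genes on the chromosome were compared with the called ones, taking the order of genes from the BDGP6 annotation and none of its coordinates. Besides Psc and Su(z)2, the called genes CG33993 and CG10479 are next to each other among the genes of the table. CG1428 lies between tsh and tio, 2 related zinc finger genes, where tsh was at 6.59 and tio at 0.807 times mock in total RNA. Obp85a lies beside CG43462, which was at 3.26 times mock with a p of 0.005 in total RNA and 4.57 times mock in nascent RNA. Abd-B lies between msa at 35.7 times mock with a p of 0.174 and Ahcy89E at 2.78 times mock with a p of 0.001 in the authors' deposited table. Leaving out neighbours that were themselves called, 8 of 34 genes next to a called gene were higher at an unadjusted p, or 23.5% beside 9.27% of all genes, and 0 were lower. Their median ratio was 1.18, beside 1.042 over all genes.

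Total RNA ratios went with the length of the transcript. In the shortest of 5 equal classes of gene models, with a median exon length of 855 bp, 28.5% of genes had a ratio above 1, and in the longest class, with a median of 6004 bp, 74.3% did. The median log2 ratio was -0.26, -0.07, 0.08, 0.22 and 0.25 from the shortest to the longest class in total RNA, beside -0.03, -0.02, 0.01, 0.02 and 0.04 in nascent RNA. Unadjusted calls followed, with 26 higher and 58 lower in the shortest class and 194 higher and 15 lower in the longest. The called genes numbered 1, 2, 4, 6 and 6 from the shortest to the longest class, with a median exon length of 3314 bp, beside 2152 bp over all genes. The Ph RNAi and Pc RNAi total RNA comparisons, which share the mock libraries, had medians of -0.38 and -0.21 in the shortest class and 0.21 and 0.25 in the longest. The smallest log2 ratio of a gene that rose was 0.59, for CG5886 of the middle class, whose median was 0.08. A class median sets no limit for single genes, and the part of length in the results was not tested.

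**Figure D5:**
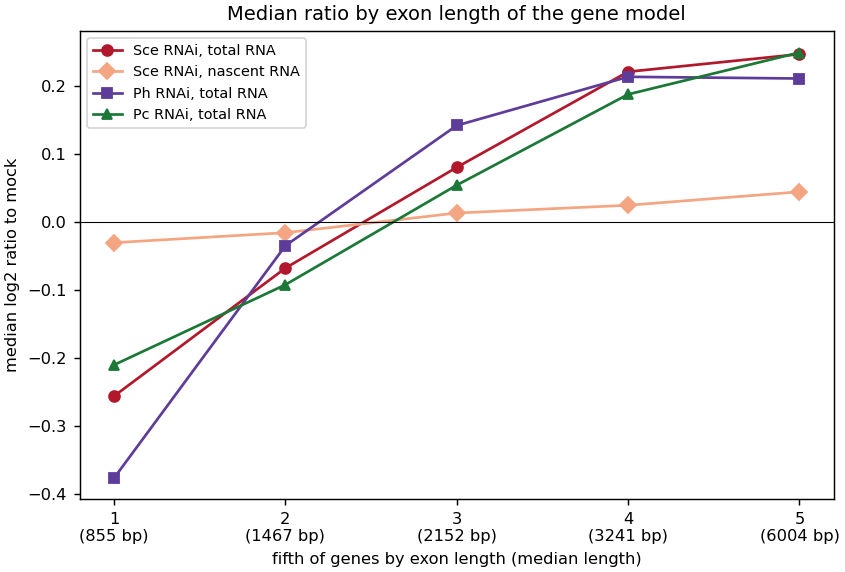
Median log2 ratio to mock (vertical axis) in 5 classes of genes by exon length of the gene model (horizontal axis, median length in bp) for 4 comparisons. The 3 total RNA lines, which share mock libraries, run upwards to between 0.21 and 0.25, while the nascent line stays between -0.03 and 0.04.

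Several lists of mostly short genes had medians below 1. Of 83 genes for cytoplasmic ribosomal proteins, 11 were above 1 in total RNA, with a median log2 ratio of -0.40. At an unadjusted p 0 were higher and 3 lower, or 3.61% lower beside 2.3% of all genes. The 3 were RpS29 at 0.538, RpL10Ab at 0.609 and RpLP1 at 0.722. The nascent median of the 83 genes was 0.14, and 59 of the 83 belonged to the shortest class. Relative to genes of the same length class the total RNA median was -0.18. Of 100 histone genes, which include the variant genes His2Av, His3.3A, His3.3B and His4r, 17 were above 1. Their median was -0.50, or -0.24 relative to the length class. At an unadjusted p 0 were higher and 8 lower, or 8% lower beside 2.3% of all genes. Of all 1504 genes in the shortest class, 26 were higher and 58 lower. Histone genes exist in near-identical copies that share reads, so single copies are uncertain, and 98 of the 100 were in the shortest class.

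Genes of oxidative phosphorylation had a median of -0.32, or -0.10 relative to the length class, and 15 of the 22 were in the shortest class. At an unadjusted p 0 were higher and 3 lower, or 13.6% lower beside 2.3% of all genes. The 3 were ATPsyn-beta at 0.581, CoVIIc at 0.611 and ATPsyn-b at 0.648. The 7 Uhg genes, hosts of small nucleolar RNAs, were all below 1 with a median of -0.44, or -0.19 relative to the length class, and all 7 were in the shortest class. All 6 genes of the Enhancer of split region, targets of Notch signalling, were below 1 in both kinds of RNA, with medians of -0.56 in total RNA, -0.38 relative to the length class, and -1.20 in nascent RNA, and none passed an unadjusted p in total RNA. Their median nascent mock signal was 156 units and only 2 of the 6 lay above the 10th percentile, so these ratios are uncertain. Of 22 heat shock and chaperone genes, 3 were in the shortest class. The median of the 22 was -0.34 in total RNA and 0.57 in nascent RNA. At an unadjusted p 1 was higher, Hsc70Cb at 1.83, and 1 lower, Hsp67Ba at 0.398, or 4.55% each. Mitochondrial ribosomal protein genes, also short, had a median of -0.04, which turned to 0.19 relative to the length class. Of these 74 genes 3 were higher and 1 lower, or 4.05% and 1.35%, beside 9.27% and 2.3% of all genes. None of the genes in these lists passed the q threshold in the authors' deposited table.

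Among signalling and adhesion lists, only aPKC of the polarity list had a q under 0.05. Of 38 Wnt, Hedgehog and Dpp pathway genes 7 were higher and 2 lower at an unadjusted p, or 18.4% and 5.26%, beside 9.27% and 2.3% of all genes. The Hedgehog receptor genes ptc and boi were at 2.19 with a p of 0.001 and 2.29 with a p of 0.002 in the authors' deposited table, the transcription factor gene ci of the same pathway at 0.567 with a p of 0.029, and shf, needed for Hedgehog spreading, at 0.274 with a p of 0.006. Of 32 axon guidance genes 5 were higher, or 15.6%, and 1 lower, with comm at 1.97 and Con at 4.41. Of 19 integrin and cadherin genes 4 were higher, or 21.1%, and 0 lower, with scb, another integrin subunit gene, at 1.88 beside if. Of 18 matrix genes 4 were higher, or 22.2%, and 0 lower, with the heparan sulfate genes Sulf1 at 2.41, dlp at 2.35 and dally at 1.79 and the collagen gene vkg at 1.65. Of the 18, 9 were above 1 and 9 below, with a median log2 ratio of 0.03 and a lowest ratio of 0.189. Of 15 Hippo pathway genes 4 were higher, or 26.7%, and 0 lower, with wts at 1.54 and kibra at 1.77. These lists hold few short genes, and relative to the length class their median log2 ratios were between -0.22 and 0.07. Their shares are also to be read beside those of long genes. At an unadjusted p 229 of 1504 genes were higher in length class 4 and 194 of 1503 in class 5, the longest.

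The counts of the remaining pathways are to be read beside the 9.27% higher and 2.3% lower of all genes. Counts of genes higher and lower at an unadjusted p were 3 and 0 of 32, or 9.38% higher, for receptor tyrosine kinase signalling with InR at 1.82, and 1 and 1 of 21 for Notch with fng at 0.609. They were 1 and 0 of 10 for JAK/STAT with the cytokine gene upd3 at 4.66. Immune signalling gave 4 and 0 of 25, or 16% higher, with pirk at 5.85, and ecdysone response 0 and 0 of 16. Dosage compensation genes gave 0 and 1 of 8, the 1 being the noncoding RNA gene roX2 at 0.392 with a p of 0.001 in the authors' deposited table and a nascent mock mean of 16.2 units. Glycolysis gave 1 and 0 of 15, and lipid metabolism 5 and 1 of 29, or 17.2% and 3.45%, with Lpin at 2.05. The actin cytoskeleton gave 4 and 1 of 37, or 10.8% and 2.7%, with Gel at 0.365.

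Genes of cell division and RNA metabolism were likewise without a q under 0.05. Mitosis genes gave 8 higher and 0 lower of 45 at an unadjusted p, or 17.8% higher beside 9.27% of all genes, with the centrosome gene cnn at 1.86 and the gene of the anaphase activator fzy at 1.71, and a median log2 ratio of 0.27 in total RNA and -0.11 in nascent RNA. Relative to the length class the total RNA median of mitosis genes was 0.08. DNA replication genes gave 0 and 0 of 39 with medians of 0.15 and -0.38, and regulators of the cell cycle 1 and 0 of 21, with CycE at 1.89 in total RNA and 0.703 in nascent RNA. Proteasome genes gave 6 and 0 of 34, or 17.6% higher, with a median of 0.16 in total RNA, 0.24 relative to the length class and -0.10 in nascent RNA. The RNAi machinery gave 3 and 0 of 24 with AGO2, the slicer of the dsRNA pathway, at a log2 ratio of 0.58, and genes of the response to viral dsRNA gave 1 and 0 of 8. Pausing and elongation factors gave 4 and 0 of 24, cohesin, condensin and insulator genes 0 and 0 of 17, and apoptosis genes 0 and 0 of 13.

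Markers of cell types were followed because the label names a neural line. The neuronal RNA-binding protein gene elav had a nascent mock mean of 9594 units and was at 0.941 times mock in total RNA, and the neuronal cadherin gene CadN, with 863517 units, was at 0.866 in the authors' deposited table. Of the 11 neuronal markers, 5 were above 1 and 6 below in total RNA, and cpo was at 3.47 times mock with a p of 0.008. The glial gene repo, with 2890 units, was at 2.37 times mock in total RNA with a p of 0.059. Of the 15 glial markers, 7 were above 1 and 8 below in total RNA. In nascent RNA 12 of these 15 were below 1, with a median log2 ratio of -0.69. All 9 neural stem cell genes were above 1 in total RNA, with klu at 11.1 times mock and a p of 0.002. The blood cell regulator gene srp was transcribed as well, with 73365 units in mock, while the blood cell genes Hml and eater had 270.6 and 227.5 units. Over the 14 blood cell markers the median nascent mock signal was 112118 units, beside 4447 for all genes. Of the 14, 11 lay above the 10th percentile. Median log2 ratios in total RNA were -0.09 for 11 neuronal markers, -0.03 for 15 glial markers, 0.59 for 9 neural stem cell genes, 0.20 for 14 blood cell markers, -0.29 for 17 muscle markers and 0.10 for 9 germ line markers. Relative to the length class the blood cell and germ line medians turned to -0.04 each, and among genes above the 10th percentile of nascent signal the muscle median turned to 0.15 and the neuronal one to 0.00. Fat body markers had 0.21 over 4 genes, imaginal disc markers 0.72 over 14 and gut markers 2.16 over 5, and among genes above the 10th percentile of nascent signal the disc and gut medians were 0.30 and 1.08. The stem cell list shares nub and chinmo with the Polycomb target list, the disc list nub and ap, the gut list nub and cad, and the blood cell list srp. None of the cell type markers had a q under 0.05 in total RNA, while cpo and klu were called in nascent RNA. The largest counts at an unadjusted p in total RNA were 2 higher, in the stem cell, blood, disc and gut lists. These were 22.2% of 9, 14.3% of 14, 14.3% of 14 and 40% of 5 genes, beside 9.27% of all genes. The stem cell and gut lists also share pros, at 4.48 times mock with a p of 0.032 in the authors' deposited table. In bulk RNA, fewer cells of a type and less RNA per cell cannot be told apart.

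Large ratios that did not pass were also found among genes with nascent signal above the median, and those given here were picked with their values known. A nascent signal above the median does not show that total RNA was also high in mock cells. Dat, an acetyltransferase gene, was at 44.6 times mock with a p of 0.075, bru-3 at 5.53 with a p of 0.028, the homeobox gene pros at 4.48 with a p of 0.032 and Ptr at 4.21 with a p of 0.038 in the authors' deposited table. Their nascent ratios were 0.979, 0.885, 0.988 and 0.484, all below 1. Of the 12 highest genes of this kind 5 were above 1 in nascent RNA, namely if, ec, CG43462, CG2964 at 1.70 and rgn at 2.33. At the low end CG32320 was at 0.117 with a p of 0.011, Pkc53E, a protein kinase C gene, at 0.141 with a p of 0.053 and CR34335 at 0.211 with a p of 0.001 in the authors' deposited table. For these 3 the nascent ratios were 0.724, 0.221 and 0.632, and the 12 lowest genes of this kind were all below 1 in nascent RNA.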

How the data were processed

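The single deposited table has 7624 rows, 1 per gene. The authors, per the file headers, averaged a signal per gene over the nascent libraries of each group, and gave for each comparison a ratio of the RNAi mean to the mock mean, a p-value and a q-value. SAMtools and bedtools appear in the submitters' processing notes, and the labels list a plus and a minus strand track per group. The sources used here do not name the aligner, build, annotation, test or q-value method. Nascent column sums were 191793598, 192180746 and 192278102 for mock, Sce RNAi and Ph RNAi, so a common total had been set, and a global change cannot be seen. Depth is unknown. The table also holds 4 columns of total RNA group means that match no sample of the series and were not used, so levels are described by the nascent mock mean. That mean need not follow the level of total RNA, so a total RNA ratio may rest on little total RNA in mock. Deposited ratios, p-values and q-values have 3 decimals, and a log2 of a ratio listed at 0 used 0.0005. The median over genes of q divided by the Benjamini-Hochberg value of the rounded p was 0.617, which does not describe the genes with p listed at 0. Replicates are numbered in the labels without saying whether they are separate cultures, so the p-values may measure technical spread.

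Computed here with Python 3.11.15 and pandas 2.3.3 were log2 ratios, counts at q under 0.05, counts at an unadjusted p under 0.05, and medians over 45 gene lists. No test across libraries was run. The Benjamini-Hochberg step was tested on simulated data. The order, exon length and overlap of genes came from the Ensembl annotation of BDGP6, in which 7517 of 7624 symbols matched. Genes were named by rule: the 12 highest and 12 lowest ratios among called genes above the median nascent mock signal, the 5 highest and 5 lowest whatever the signal, PRC1 and PRC2 genes, called Polycomb targets, up to 4 called genes per list and genes called in nascent RNA. Fewer genes were called than the rule allows. Those named beyond it were chosen after their values were seen. Members and lists were chosen with earlier results of these data known.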

Additional observations from a re-analysis of the deposited data

How the results depend on the processing

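The 18 rises and 1 fall in total RNA could not change under centring on the median ratio, centring by exon length class or removal of genes that share more than 50% of their exon bases, because the authors' q stays as it is, every call is larger than the shift and no called gene has such overlap, so these say nothing about stability. The last pair was added after seeing the data. All calls passed a 1.5-fold minimum. With nascent mock signal above its 10th percentile 13 rises and 1 fall remained, and above its median 9 and 1. A q under 0.01 left 5 and 0, and a q under 0.1 gave 27 and 3. Adjusting the rounded p by Benjamini-Hochberg gave 25 and 2 when an entry of 0 was read as 0, and 0 and 0 when it was read as 0.0005, since 3 decimals cannot carry the adjustment. Nascent calls became 9 higher and 11 lower at a q under 0.1, beside 5 and 4 at 0.05. List medians moved by under 0.1 in log2 in 44 of 44 lists of 5 or more genes when centred on all genes and in 35 with the signal filter, but in 7 when centred by length class. There the Polycomb target median was 1.34, and 0.65 with the signal filter, beside 1.59. The share of calls with the same nascent direction was 90% above the median signal, beside 89.5%. Leaving out replicates was not possible, and depth limits cannot be given, because the table holds no values per library. No paired analysis was possible because the table gives group means and no value per replicate number.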
